A study of Rattus norvegicus with 6 samples.

Results

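The genes described here carry or report the bone morphogenetic protein (BMP) signal: the type I receptors *Bmpr1a* and *Bmpr1b*, the signalling SMAD *Smad9*, the inhibitory SMADs *Smad6* and *Smad7*, the 4 ID genes *Id1* to *Id4*, and the secreted inhibitor *Nog*. They were chosen by symbol, for their place in the pathway and with earlier results of these data known, and all 10 were found among the 17315 rows of the expression tables. Of these, 9 passed the filter on low values that left 10331 genes for testing, and *Bmpr1b* did not. The samples were RNA from adult rat hippocampal neural stem cells (NSCs, labelled HCN), a cloned line. The siControl group (3 samples) received a Stealth negative control duplex and the siDerl1 group (3 samples) a Stealth duplex against *Derl1*, which encodes the endoplasmic reticulum protein Derlin-1. Both groups spent 2 days in proliferation medium and then 2 days with 50 ng/mL of BMP4 in the presence of 10 ng/mL of bFGF, which brings these cells towards quiescence. No sample without BMP4 was analysed here, so the response to BMP4 itself cannot be read. A single duplex and a single line stand behind the knockdown group. Values are TPM, in which reads are divided by transcript length and each sample is scaled to the same total, and differences are on the log2(TPM + 1) scale, which understates the change of low genes.

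BMP ligands join type I and type II receptors, and the type I kinases phosphorylate SMAD1, SMAD5 and SMAD9, which enter the nucleus with SMAD4. ID genes are among the best known direct targets. Their proteins hold E proteins away from the bHLH factors that drive differentiation. *Smad6*, *Smad7* and *Nog* are also induced by the signal and dampen it. In the adult hippocampus, BMP signalling through the receptor that *Bmpr1a* encodes is known for keeping NSCs quiescent.

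The targeted gene was checked first. *Derl1* (NM_001014202) was at 122, 132 and 128 TPM in siControl samples 1, 2 and 3, and at 44.9, 70.8 and 74.0 TPM in the siDerl1 samples of the same numbers. All 7 NSC markers were detected, from *Vim* at 3008 to 5044 TPM and *Sox2* at 445 to 565 TPM down to *Pax6* at 2.24 to 4.88 TPM. Markers of the oligodendrocyte lineage were also present, with *Sox10* between 541 and 787 TPM, while *Mog* was listed at 0. Of the astrocyte markers *S100b* was between 445 and 708 TPM and *Gfap* between 27.7 and 66.3 TPM, while *Aqp4* was at most 0.2 TPM. The 5 microglia markers reached at most 0.46 TPM and the 3 endothelial markers at most 0.67 TPM. The summed TPM of 9 interferon-induced genes was 47.9, 463 and 452 in siControl samples 1, 2 and 3 and 47.0, 913 and 859 in the siDerl1 samples, so that both samples numbered 1 stood apart from the other 4.

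All 4 ID genes were abundant, and all were lowest in sample number 1 and highest in sample number 3 of both siRNA groups. *Id1* (NM_012797) was at 235, 418 and 690 TPM in siControl samples 1, 2 and 3, and at 259, 494 and 734 TPM in siDerl1 samples 1, 2 and 3. The 2 samples of one number were thus closer to each other than to any sample of another number. *Id2* (NM_013060), which is known in neural progenitors for restraining differentiation, was at 475, 756 and 1003 TPM in siControl samples and at 389, 734 and 940 TPM in siDerl1 samples. *Id3* (NM_013058) was the most abundant of the 10 genes, with 980, 1364 and 1896 TPM in siControl samples and 958, 1519 and 1995 TPM in siDerl1 samples. *Id4* (NM_175582) was the least abundant of the family, with 186, 365 and 490 TPM in siControl samples and 197, 368 and 463 TPM in siDerl1 samples. Within every sample the order *Id3*, *Id2*, *Id1*, *Id4* held, and the ratio of *Id3* to *Id2* lay between 1.80 and 2.46.

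**Figure D1:**
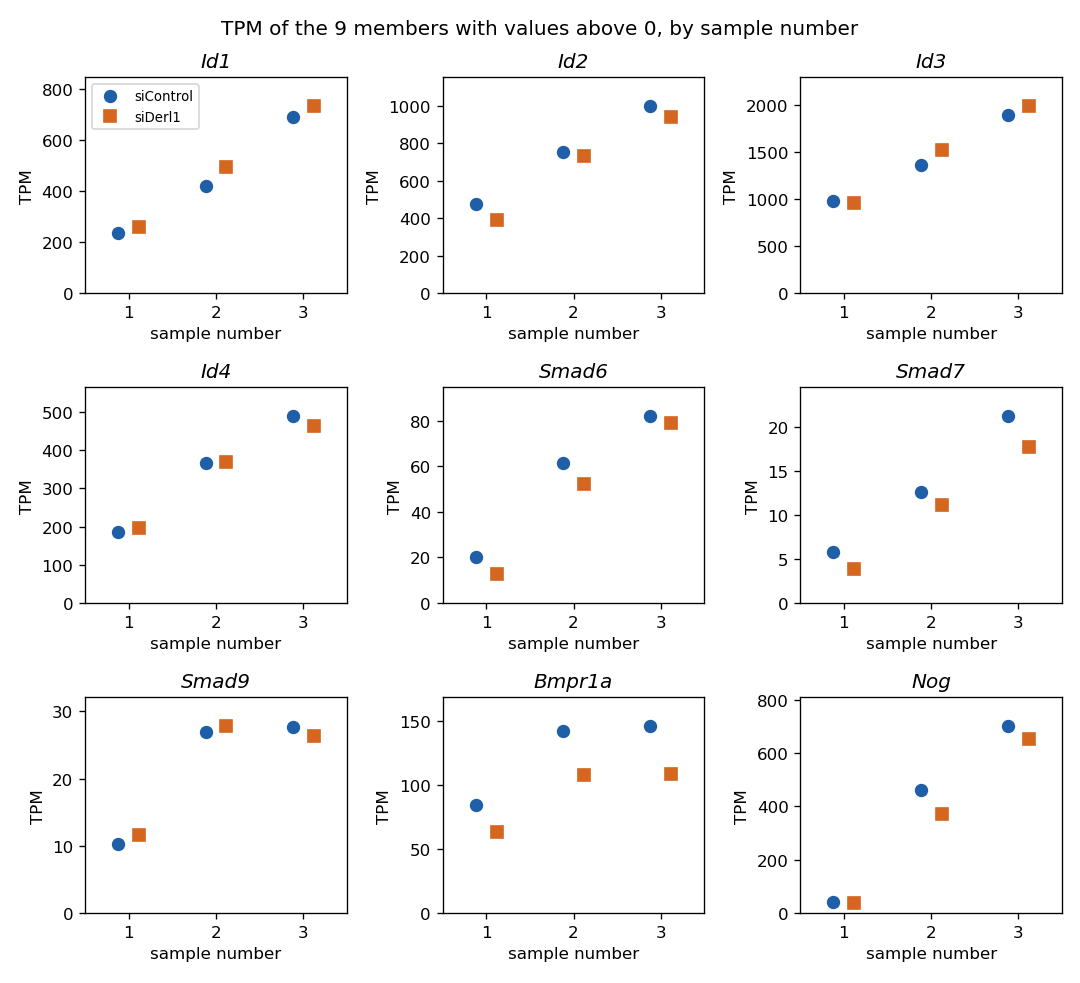
TPM (vertical axes, from 0, a scale for each gene) of the 9 genes with values above 0 against the sample number from the labels (horizontal axes), with siControl as circles and siDerl1 as squares, 1 point per sample. Both samples numbered 1 lie below the other 4 samples for each gene, and *Bmpr1a* is lower in siDerl1 than in siControl at every number.

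The inhibitory SMADs, the signalling SMAD and Noggin went with the sample number in the same way. *Smad6* (NM_001109002), which encodes an inhibitor acting mainly on the BMP branch, was at 20.2, 61.5 and 82.3 TPM in siControl samples 1, 2 and 3 and at 12.6, 52.2 and 78.9 TPM in siDerl1 samples. *Smad7* (NM_030858), whose product inhibits both the BMP and the TGF-beta branch, was lower, at 5.81, 12.7 and 21.3 TPM in siControl samples and 3.86, 11.2 and 17.7 TPM in siDerl1 samples. The groups overlapped in both genes. *Nog* (NM_012990) encodes the secreted protein Noggin, which binds BMP ligands and keeps them from their receptors. It had the widest range of the members as a ratio of highest to lowest TPM. It was at 40.3, 463 and 703 TPM in siControl samples and at 38.4, 373 and 654 TPM in siDerl1 samples. Sample 3 thus held 17.5 times the *Nog* of sample 1 with siControl and 17.0 times with siDerl1. *Smad9* (NM_138872), a signalling SMAD that is itself a BMP target, was at 10.2, 26.9 and 27.7 TPM in siControl samples and 11.7, 27.9 and 26.3 TPM in siDerl1 samples, with numbers 2 and 3 alike.

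*Bmpr1a* (NM_030849) was at 84.5, 142 and 146 TPM in siControl samples 1, 2 and 3 and at 63.2, 107 and 108 TPM in siDerl1 samples. It was the one member that was lower in siDerl1 by a nearly equal step at each number. *Bmpr1b* (NM_001024259), which encodes the closely related second type I receptor, was listed at 0 in all 6 samples, so no difference can be given for it. By mean TPM the order of the members was *Id3*, *Id2*, *Id1*, *Nog*, *Id4*, *Bmpr1a*, *Smad6*, *Smad9*, *Smad7* and *Bmpr1b*. Neighbours held this order in every sample except around *Nog*, which was above *Id4* in 4 of 6 samples and below *Id1* in 4 of 6. Over all samples the ranges of neighbours overlapped except between *Id4* and *Bmpr1a* and between *Smad7* and *Bmpr1b*.

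The bases before the transcription starts of the ID genes and *Nog* are shown as a description. Their part in the differences by sample number was not tested. Such sequence from RefSeq (GRCr8), matched by symbol, was used for 8 of the 10 members, all but *Smad6* and *Bmpr1b*. Each run is the 250 bases before the start, 5′ to 3′ on the gene's strand, in lower case. Capitals mark the SMAD-binding motif GTCT, which reads AGAC on the opposite strand, and the GC-rich SMAD motifs. Of the latter, GGCGCC reads alike on both strands, while GGAGCC reads GGCTCC on the opposite one. All were searched on both strands, and no motifs marked in these runs overlap.
*Id1* (GRCr8 chr3:161671314-161671563, plus strand): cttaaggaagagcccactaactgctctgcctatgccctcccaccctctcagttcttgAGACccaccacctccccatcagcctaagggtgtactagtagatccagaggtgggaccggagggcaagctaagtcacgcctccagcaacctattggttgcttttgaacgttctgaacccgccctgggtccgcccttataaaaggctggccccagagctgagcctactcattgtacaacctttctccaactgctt
*Id2* (GRCr8 chr6:47470996-47471245, minus strand): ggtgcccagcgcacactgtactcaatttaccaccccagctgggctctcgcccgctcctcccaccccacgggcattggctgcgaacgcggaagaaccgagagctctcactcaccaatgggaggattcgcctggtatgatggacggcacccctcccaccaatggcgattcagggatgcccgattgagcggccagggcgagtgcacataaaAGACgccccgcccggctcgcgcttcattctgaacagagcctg
*Id3* (GRCr8 chr5:153656041-153656290, plus strand): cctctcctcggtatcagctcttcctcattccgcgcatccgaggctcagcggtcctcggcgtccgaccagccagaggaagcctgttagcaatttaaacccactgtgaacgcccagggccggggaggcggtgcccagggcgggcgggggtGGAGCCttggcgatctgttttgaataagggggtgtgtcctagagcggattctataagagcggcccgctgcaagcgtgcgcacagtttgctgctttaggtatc
*Id4* (GRCr8 chr17:16598294-16598543, minus strand): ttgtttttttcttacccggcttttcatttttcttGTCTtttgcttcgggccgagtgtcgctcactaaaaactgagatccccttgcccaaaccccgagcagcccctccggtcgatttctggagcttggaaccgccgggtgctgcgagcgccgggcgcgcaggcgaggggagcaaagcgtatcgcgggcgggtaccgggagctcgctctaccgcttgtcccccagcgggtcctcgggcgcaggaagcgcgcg
*Nog* (GRCr8 chr10:74627502-74627751, minus strand): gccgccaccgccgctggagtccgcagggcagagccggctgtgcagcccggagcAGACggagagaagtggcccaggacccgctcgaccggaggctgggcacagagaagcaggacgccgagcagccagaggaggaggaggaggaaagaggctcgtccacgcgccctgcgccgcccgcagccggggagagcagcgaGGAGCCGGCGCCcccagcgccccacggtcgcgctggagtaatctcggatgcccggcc

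In these 250 bases GTCT was found in 7 of the 8 members with sequence, all but *Id3*, and in 84.0% of all 33469 promoters of the same length. GGCGCC was found in 3 of the 8 (*Smad7*, *Smad9* and *Nog*) and in 8.7% of all promoters, and GGAGCC in 2 of the 8 (*Id3* and *Nog*) and in 23% of all. *Nog* holds GGAGCC and GGCGCC next to each other, 57 and 51 bases before its start. G and C made up 74.0% of its 250 bases, against a median of 51.2% over all promoters. *Id1*, *Id2* and *Id4* each hold a single GTCT and neither of the other motifs within these 250 bases. Sequence farther from the start was not searched, so motifs there are not covered. A match is a description of the letters, and binding was not measured.

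The differences among sample numbers were tested with limma's moderated F test with the siRNA group in the model. All 9 members tested were called (adjusted p under 0.05), against 10.6% of all genes tested, and all 9 were higher in numbers 2 and 3 than in number 1. Since the members were chosen with earlier results known, the count is a description. The largest difference between numbers 2 and 3 and number 1 was that of *Nog*, 3.72 (SE 0.06, F test adjusted p = 1.15e-08), followed by *Smad6* with 2.01 (SE 0.12, F test adjusted p = 2.58e-05). *Smad7* differed by 1.496 (SE 0.14), *Smad9* by 1.24 (SE 0.11), *Id1* by 1.20 (SE 0.05), *Id4* by 1.12 (SE 0.05), *Id2* by 0.98 (SE 0.06), *Id3* by 0.79 (SE 0.05) and *Bmpr1a* by 0.76 (SE 0.06). Their adjusted p values from the F test lay between 1.99e-06, for *Id1*, and 4.13e-04, for *Smad9*. The F test covers any difference among the numbers, and no p was computed for these differences alone. In each of the 9, both samples numbered 1 were below the other 4, which held for 17.0% of all genes tested. The median over the members was 1.20, and over all genes 0.01. Cell type markers also went with the number. By the same test 5 of 7 NSC markers were called, 3 of them higher in numbers 2 and 3 (*Sox9* by 2.00, *Hes5* and *Vim*) and 2 lower (*Fabp7* and *Sox2*). All 3 astrocyte markers tested were called, with *Gfap* at −0.61, *S100b* at −0.60 and *Slc1a3* at 0.65, as were 2 of 4 oligodendrocyte markers, *Sox10* at −0.34 and *Pdgfra* at −0.56. Of the 3 neuron markers and the 1 mural or fibroblast marker tested, 0 were called. In bulk RNA, a change in the share of cells and a change per cell cannot be told apart. The part of these markers in the result was not tested. The labels do not say what the numbers stand for. What set number 1 apart was not tested.

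The members fell into those that also differed between numbers 2 and 3 and those that did not. For 7 of the 9, both samples numbered 3 lay above the other 4, against 9.25% of all genes tested. The difference of number 3 from number 2 was 0.71 (SE 0.07) for *Nog*, 0.66 (SE 0.16) for *Smad7*, 0.65 (SE 0.06) for *Id1*, 0.50 (SE 0.13) for *Smad6*, 0.43 (SE 0.06) for *Id3*, 0.38 (SE 0.07) for *Id2* and 0.38 (SE 0.06) for *Id4*. It was within its error of 0 for *Bmpr1a* (0.03, SE 0.07) and *Smad9* (−0.02, SE 0.13). The 9 interferon-induced genes were also all called by sample number and had their lowest values in number 1, with a median of 3.47 for numbers 2 and 3 over number 1, but their median for number 3 over number 2 was −0.03. Their part in the result for the BMP genes was not tested. Of the 6 proliferation genes, 1 was called by sample number, which is near the 10.6% of all genes. It was *Cdk1*, at 312, 263 and 317 TPM in siControl samples and 338, 276 and 305 TPM in siDerl1 samples. The summed TPM of these 6 was between 1072 and 1295.

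**Figure D2:**
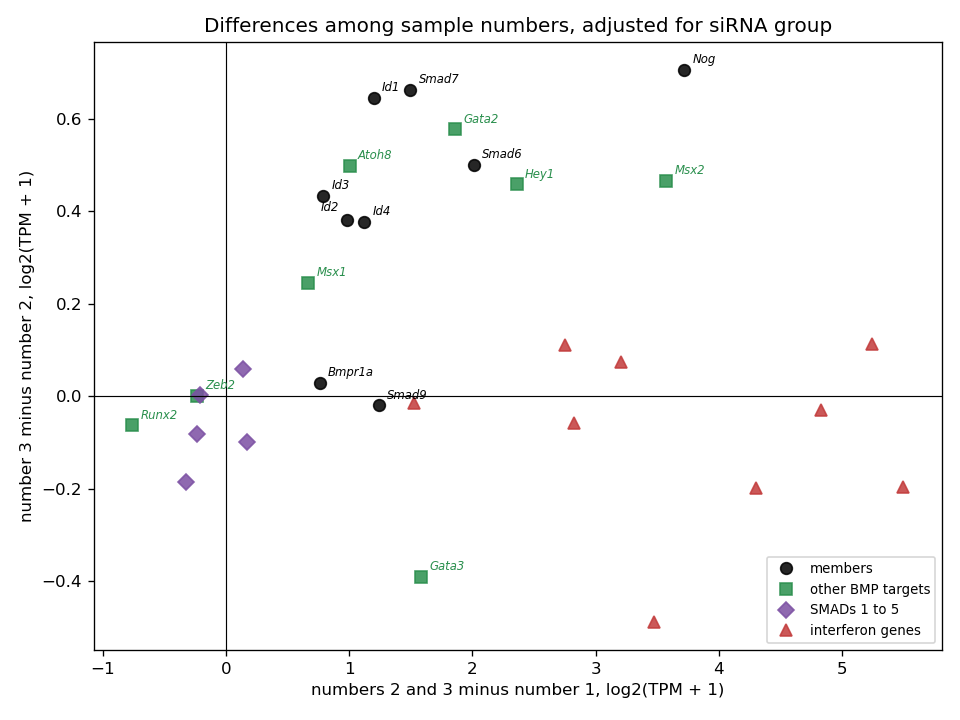
Differences among sample numbers on the log2(TPM + 1) scale, adjusted for siRNA group: numbers 2 and 3 over number 1 (horizontal axis) and number 3 over number 2 (vertical axis), 1 point per gene, for the members, the other BMP targets, SMADs 1 to 5 and the interferon genes. *Nog* lies farthest to the right of the members at 3.72, 7 members lie well above 0 on the vertical axis, and *Smad9*, *Bmpr1a* and the interferon genes lie near or below 0 on it.

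Because ID proteins act by binding E proteins, the ID genes were also read as a pool. The summed TPM of the 4 ID genes was 1877, 2903 and 4079 in siControl samples 1, 2 and 3 and 1803, 3116 and 4133 in siDerl1 samples. The sum of the E protein genes *Tcf3*, *Tcf4* and *Tcf12* moved little, between 492 and 550 TPM over the 6 samples. ID transcripts therefore outnumbered E protein transcripts by 3.61, 5.42 and 7.69 to 1 in siControl samples and by 3.28, 6.04 and 8.39 to 1 in siDerl1 samples. The siRNA groups overlapped in this ratio (exact permutation test, two-sided p = 0.8).

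The makeup of the ID pool was compared between the siRNA groups. *Id2* made up 25.3%, 26.0% and 24.6% of the pool in siControl samples 1, 2 and 3, and 21.6%, 23.6% and 22.7% in siDerl1 samples. All siDerl1 samples were below all siControl samples (two-sided exact permutation test, p = 0.1, which is the lower bound for 3 samples a group, and 0.8 when adjusted over the 16 sums and ratios computed). *Id1* made up 12.5%, 14.4% and 16.9% in siControl samples and 14.4%, 15.9% and 17.8% in siDerl1 samples. It was higher in siDerl1 within each number, but the groups overlapped (exact permutation test, two-sided p = 0.5, adjusted 0.96). The permutation tests of sums, shares and ratios did not pair the samples by number, so the spread between numbers is part of them.

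**Figure D3:**
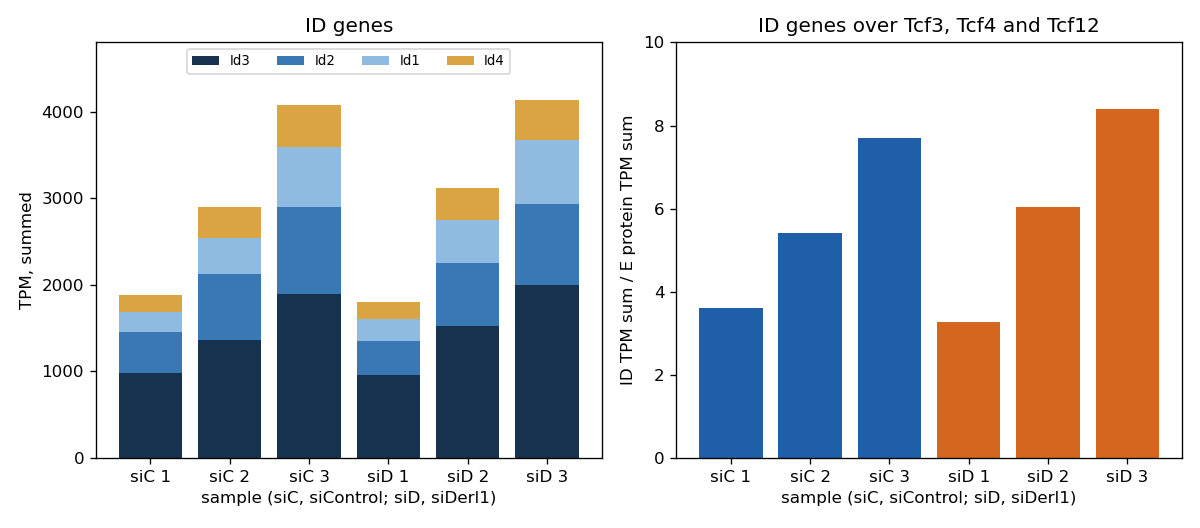
Left, stacked TPM of *Id3*, *Id2*, *Id1* and *Id4* in each of the 6 samples (siC, siControl, and siD, siDerl1, with the sample number); right, the ratio of that sum to the summed TPM of *Tcf3*, *Tcf4* and *Tcf12*. The sums lie between 1803 and 4133 TPM and the ratios between 3.28 and 8.39, with the highest bar of each group in sample 3.

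The study's main question was the effect of *Derl1* knockdown. Compared without regard to the sample number, no member was called between siDerl1 and siControl NSCs. Of the 9 tested, 4 were higher and 5 lower in siDerl1, with a median difference of −0.14 against −0.02 over all genes. With limma, 0 members had an adjusted p under 0.05, as did 0% of all genes, and 0 members had an unadjusted p under 0.05, against 692 genes of all tested. The targeted *Derl1* differed by −1.03 and was not called either (adjusted p from limma = 0.497, and 0.00884 with the number as a block). The groups did not overlap in 0 of the 9, against 13.6% of all genes. The intervals were wide, because the spread between numbers is part of the error here. The difference of *Id1* was 0.16 (95% interval −0.94 to 1.25) and that of *Nog* −0.16 (−3.27 to 2.95). A change of several-fold in *Nog* is inside its interval. The limits used in the study (ratio above 1.5 or below 0.8 with an unadjusted p under 0.05) were passed by 0 members and 2.21% of all genes.

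Compared within sample numbers (the number as a block), *Bmpr1a* was lower in siDerl1 NSCs. Its difference was −0.41 (SE 0.06, 95% interval −0.54 to −0.29, adjusted p = 0.0234 from limma), and it was −0.41, −0.40 and −0.43 in numbers 1, 2 and 3. The ratio of mean TPM was 0.749, from 124 ± 34.4 TPM in siControl to 92.9 ± 25.7 TPM in siDerl1 NSCs (SD, n = 3 each). It was the only 1 of the 9 members called, against 0.552% of all genes, and the only 1 within the limits of the study, against 4.23% of all genes. The interferon-induced genes were also compared here: all 9 had a higher estimate in siDerl1, with a median of 0.69, and 3 were called with the block. In number 1, however, *Isg15*, *Bst2* and *Rsad2* were lower in siDerl1 (−0.96, −0.76 and −0.55), while the others were higher. Of the cell type markers 1 was called with the block, *Gfap*, which was higher in siDerl1 by 0.62 (adjusted p = 0.0219), while the other astrocyte markers tested, *S100b* and *Slc1a3*, differed by 0.01 and −0.15 and were not called. *Gfap*, *Hes5*, *Pdgfra* (−0.42) and *Dcx* (−0.42) passed the limits of the study with the block, as did 5 of the 9 interferon-induced genes. The part of these genes in the *Bmpr1a* difference was not tested. The call of *Bmpr1a* depended on the fit. Without the block the adjusted p was 0.817. With the block it was 0.104 with every gene kept and 0.230 with no trend in the variance, and 0.110 and 0.122 when sample 3 of siControl or of siDerl1 was left out.

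No other member was called within sample numbers, and for most of them the interval bounds the difference closely. *Id3* differed by 0.07 (95% interval −0.04 to 0.17, adjusted p = 0.545), *Id4* by 0.00 (−0.11 to 0.12, adjusted p = 0.977) and *Smad9* by 0.05 (−0.18 to 0.28, adjusted p = 0.855). *Id1* was higher in siDerl1 within every number, by 0.14, 0.24 and 0.09, with an interval of 0.05 to 0.26 and an adjusted p of 0.177. *Id2* was lower within every number, with differences of −0.29, −0.04 and −0.09, an interval of −0.26 to −0.02 and an adjusted p of 0.256. *Smad6* differed by −0.31 (−0.55 to −0.06, adjusted p = 0.224), *Smad7* by −0.30 (−0.60 to −0.003, adjusted p = 0.312) and *Nog* by −0.16 (−0.29 to −0.03, adjusted p = 0.235), each with the lower value in siDerl1 at every number. In all, 6 of the 9 had an unadjusted p under 0.05 with the block, against 15.7% of all genes, and 5 of these 6 were lower in siDerl1. The 95% intervals are not adjusted for the number of genes.

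**Figure D4:**
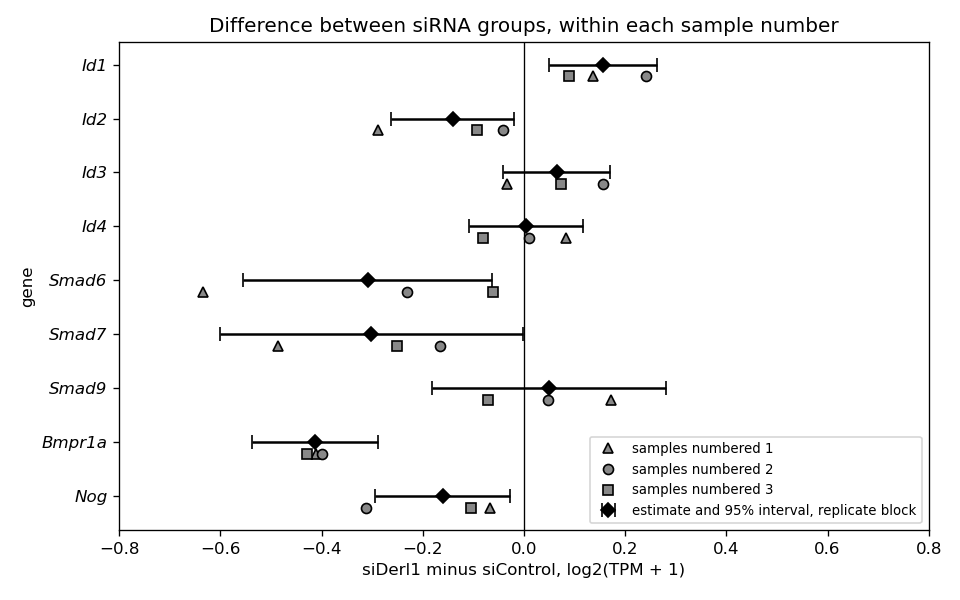
Differences of siDerl1 from siControl on the log2(TPM + 1) scale (horizontal axis) for the 9 members tested: diamonds and bars are the estimate and its 95% interval from limma with the sample number as a block, and grey symbols are the differences within sample numbers 1, 2 and 3. The 3 values of *Bmpr1a* lie together between −0.43 and −0.40, and those of *Id3*, *Id4* and *Smad9* lie on both sides of 0.

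The other genes of the pathway were read from 7 lists with 69 genes, of which 49 were tested. Their median difference between siRNA groups was −0.07, with 17 higher and 32 lower in siDerl1, and 0 had an adjusted p under 0.05 with or without the block (3 had an unadjusted p under 0.05 without it, 6.12% against 6.70% of all genes, and 10 with it, 20.4% against 15.7%). Of the 11 receptors and co-receptors, 9 were tested, and 2 were called by sample number, 1 in each direction (10.6% of all genes were called). *Acvr1*, which encodes a further type I receptor of the BMP branch, passed the limits of the study. It was at 32.5, 40.9 and 36.5 TPM in siControl samples and 27.4, 26.7 and 28.5 TPM in siDerl1 samples, with no overlap, a difference of −0.39 (SE 0.10) and adjusted p values of 0.704 without and 0.118 with the block. The type I receptor genes summed to 117, 183 and 183 TPM in siControl and 91.0, 134 and 137 TPM in siDerl1 samples. *Bmpr2*, the type II partner, chosen after its values were seen, was at 57.9, 123 and 143 TPM in siControl and 67.8, 108 and 112 TPM in siDerl1 samples, a difference of −0.10 (SE 0.35, adjusted p = 0.972). *Bmpr2* was called by sample number, and was higher in numbers 2 and 3 than in number 1 by 0.94 (SE 0.10). The ratio of *Bmpr1a* to *Bmpr2* was 1.46, 1.16 and 1.03 in siControl samples and 0.933, 0.992 and 0.963 in siDerl1 samples (exact permutation test, two-sided p = 0.1, adjusted 0.8).

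Among the ligands, 4 of 12 were tested and 0 passed a limit for siRNA group or sample number (10.6% of all genes were called by sample number, so that a count of 0 in so short a list is near that share). *Bmp6*, which was below the filter and is named after its values were seen, was at 0.29, 0.13 and 0.15 TPM in siControl samples and 2.18, 0.78 and 1.45 TPM in siDerl1 samples, with no overlap (two-sided exact permutation test, p = 0.1). *Gdf11* was between 61.2 and 73.4 TPM and *Bmp7* between 40.8 and 57.7 TPM. The cells thus held ligand transcripts beside the BMP4 that was added. *Smad1*, *Smad2*, *Smad3*, *Smad4* and *Smad5*, which are controlled mainly as proteins, were all tested, and 0 of the 5 were called by siRNA group (0% of all genes without and 0.552% with the block) or by sample number (10.6%). *Smad5* was between 52.5 and 79.0 TPM and *Smad4*, the common partner, between 48.2 and 61.2 TPM. *Smad9* was called by sample number and *Smad1* and *Smad5* were not. Its share of the summed *Smad1*, *Smad5* and *Smad9* TPM was 7.76% and 8.94% in the samples numbered 1 and between 18.8% and 21.1% in the other 4.

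Of the 13 antagonists and modulators 7 were tested, and 3 were called by sample number (against 10.6% of all genes), all of them higher in numbers 2 and 3. *Bambi*, a decoy receptor that the pathway induces, was at 23.6, 95.5 and 97.4 TPM in siControl samples and 31.7, 66.2 and 90.9 TPM in siDerl1 samples. *Bmper* and *Fstl1* were the others. *Fstl1* was between 92.1 and 123 TPM, and *Nbl1*, which was not called, between 60.4 and 100.3 TPM. Of the 8 further BMP target genes, all were tested and 7 were called by sample number, again against 10.6%, 6 of them higher in numbers 2 and 3. *Msx2*, a homeobox gene, was at 10.2, 98.7 and 128 TPM in siControl samples and 5.76, 76.4 and 113 TPM in siDerl1 samples, a difference of 3.57 (SE 0.11) between numbers 2 and 3 and number 1. *Hey1*, a bHLH repressor that also answers to Notch, differed by 2.36 (SE 0.07), *Gata2* by 1.86 (SE 0.13) and *Atoh8* by 1.005 (SE 0.08). *Runx2* was the one that was lower in them (−0.76, SE 0.17), and *Zeb2* was not called. *Msx2*, *Gata2*, *Atoh8*, *Bambi*, *Bmper* and *Runx2* were named after their values were seen.

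Of the 8 SMAD regulators tested 4 were called by sample number (10.6% of all genes were), 2 in each direction. *Pmepa1*, a feedback inhibitor of SMAD signalling, passed the limits of the study with the block, as did 4.23% of all genes. It was at 11.1, 18.4 and 34.9 TPM in siControl samples and 10.3, 16.0 and 18.4 TPM in siDerl1 samples, a difference of −0.39 (SE 0.16 with the block, adjusted p = 0.278), and most of it came from number 3 (−0.89). Of the 8 genes of the bHLH list tested 3 were called by sample number. *Hes5*, a bHLH repressor best known as a Notch target, also passed those limits with the block, at 7.19, 4.62 and 27.8 TPM in siControl samples and 8.40, 26.6 and 35.4 TPM in siDerl1 samples (0.94, SE 0.34 with the block, adjusted p = 0.231). Its difference came mainly from number 2, with 2.30, and without the block it was 0.46 without siControl sample 2, 1.64 without siControl sample 3, 1.53 without siDerl1 sample 1 and 0.55 without siDerl1 sample 3.

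Across the 6 samples the members went together. Pearson's r of log2(TPM + 1) between the 36 pairs of the 9 members lay between 0.729 and 0.998, with a median of 0.95, as a description of samples that share the differences by number. The genes most like *Id1* were *Mn1* (r = 0.997), which encodes a transcriptional co-regulator, *Alg8* (0.997), which encodes an enzyme of N-glycan assembly, and *Id3* (0.996). *Mn1* was at 11.7, 17.2 and 24.6 TPM in siControl samples and 12.7, 19.9 and 24.3 TPM in siDerl1 samples. The genes most like *Smad6* were *Itpk1* (0.997), *Magi3* (0.996) and *Cyp26b1* (0.996), the last of which encodes an enzyme that breaks down retinoic acid. There were 120 genes with r above 0.95 to *Id1* and 225 to *Smad6*, so these are the nearest of many. None could be named for *Bmpr1b*, which was listed at 0.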

How the data were processed

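Poly(A) RNA of 6 samples of adult rat hippocampal NSCs (3 siControl, 3 siDerl1, grouped and numbered by their labels) was sequenced on an Illumina HiSeq X. Trimmomatic (0.39) for trimming, STAR (2.7.3a) for mapping to rn6 and RSEM (1.3.2) for estimating expression were used by the authors. The deposited values are TPM, rounded to 2 decimals. TPM keeps no read number, so the depth of the samples is not known and counting errors are not given. RSEM divides reads that related genes share, which bears on the ID and SMAD families.

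Groups were compared with limma (3.58.1, R 4.3.3) on log2(TPM + 1) (functions lmFit and eBayes, trend on). Genes below a mean of 1 TPM were left out, and p-values were adjusted after Benjamini and Hochberg over the 10331 genes that remained. Differences among sample numbers were tested with a moderated F test in the model of siRNA group plus number. The deviations of same-numbered samples from their group means correlated at 0.697, 0.353 and 0.507 across these genes, so the numbers were treated as pairs, although numbers 2 and 3 also correlated across groups (0.345 and 0.248) and the labels name no shared batch or day. Nothing states that samples came from separate cultures, so p-values measure the spread between these samples only. The alternatives were other pseudocounts, filters and scaling, no trend, the replicate block and each sample left out. Further block settings were chosen after seeing the data. Simulated data with 200 genes changed by 1 on the log2 scale gave back 88% of them for the siRNA group without the block, 76.5% with it and 60% for sample number. The samples simulated for the siRNA group held no spread between numbers. In the real data this spread is part of the error without the block, and 0 genes were called, so the 88% does not hold for them.

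The members and lists were chosen with earlier results of these data known. The genes named are the 10 members, *Derl1*, the members of 7 other pathway lists that passed a limit (otherwise the 2 most abundant of a list) and the 3 genes most like *Id1*, *Smad6* and *Bmpr1b*. Outside this rule, *Tcf3*, *Tcf4* and *Tcf12* were named for the E protein sum, and *Smad1*, *Smad2* and *Smad3* with the rest of their list. Others are marked where they appear. The marker and interferon genes were listed with them, to check the cells and the transfection. Promoter sequences are from RefSeq, build GRCr8, matched by symbol. They were used for sequence only, since the reads were mapped to rn6.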

Additional observations from a re-analysis of the deposited data

How the results depend on the processing

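With all 6 samples, *Bmpr1a* was the only member called between siRNA groups, and only with the block. Over all genes tested the replicate block gave 57 calls at an adjusted p under 0.05 against 0 without it. With the block and no trend, a planned setting, there were 0. With further settings, chosen after seeing the data, the block gave 2 (no filter on low values), 54 (pseudocount of 0.1), 91 (only genes with a mean of 5 TPM or more) and 35 (scaling by the median of ratios). With the block and siControl sample 1, 2 or 3 left out there were 431, 60 and 18, and with siDerl1 sample 1, 2 or 3 left out 467, 66 and 9. Without the block there were 0 with any sample left out. Among the members the block called 1 with all of these except no filter, no trend and the fits without either sample 3, which called 0, and the fits without either sample 1, which called 2. The difference of *Bmpr1a* lay between −0.42 and −0.40 in all block settings, and between −0.67 and −0.16 with 1 sample left out and no block.

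By the limits of the study 228 genes passed without the block, 437 with it, 482 with the block and no trend, 366 without the filter, and between 197 and 350 with 1 sample left out (350 without siControl sample 1). Among the members 0 passed, 1 with the block with or without a trend, and 0 to 1 with 1 sample left out (1 without siControl sample 1). Of the other pathway lists 1 gene passed, 3 without the filter, 3 with the block, 2 with the block and no trend, and 1 to 4 with 1 sample left out (4 without siDerl1 sample 1, 3 without siControl sample 1 or 3).

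The 9 members were called by sample number under every alternative run, while over all genes 1092 calls became 591 without the filter, 252 without a trend and 612 to 1672 with 1 sample left out (612 without siDerl1 sample 3, 1672 without siControl sample 1). The cause was not tested.

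Without the block, leaving out 1 sample turned the direction between siRNA groups in 8 members and *Pmepa1*. Differences then ranged from −0.24 to 0.56 for *Id1*, −0.43 to 0.22 for *Id2*, −0.18 to 0.35 for *Id3*, −0.39 to 0.36 for *Id4*, −0.90 to 0.44 for *Smad6*, −0.75 to 0.24 for *Smad7*, −0.40 to 0.43 for *Smad9*, −1.43 to 1.06 for *Nog* and −0.77 to 0.0151 for *Pmepa1*. That of *Hes5* kept its direction, between 0.46 and 1.64. With 1 sample out, the numbers are not equally represented in the groups. The depth is unknown, so no limit from counting can be given.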
